A study of Mus musculus with 7 samples.

Results

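In mouse pancreatic islets, 10 genes of the cells that surround and support vessels were followed, 5 that mark fibroblasts (*Dcn*, *Lum*, *Fbln1*, *Gsn* and *Sparc*) and 5 that mark pericytes or smooth muscle cells (*Rgs5*, *Pdgfrb*, *Acta2*, *Tagln* and *Myh11*). They were picked by name as markers of these cells, with their values in these libraries already known, and they are 10 of the 21899 genes in the deposited tables. Islets were isolated by collagenase digestion, gradient centrifugation and hand picking, and their polyadenylated RNA was sequenced. The donors were second-generation (F2) males. In the AE-F2 group, the founder (F0) dams, C57BL/6 J mice, were injected late in pregnancy with dihydrotestosterone, an androgen, in benzyl benzoate and corn oil, and in the control-F2 group the dams received the oil vehicle alone. In both groups the first-generation (F1) males were not treated after birth and were mated with unrelated wild-type females. The F2 males therefore received no androgen themselves, and the age of the islet donors for sequencing is not given in the sources used here. The labels place 3 samples in control-F2 and 4 in AE-F2. Of these, control-F2 replicate 1 and AE-F2 replicate 4 were analysed, 1 library for each group, and 5 were not analysed here. Nothing in the labels says whether a library holds the islets of 1 mouse or of several. With 1 library per group no difference has a replicate check, and the values compare these 2 libraries and not the conditions.

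Islets are clusters of endocrine cells threaded by a dense capillary network. Pericytes wrap the endothelium of those capillaries, smooth muscle cells ring the arterioles that feed them, and both are called mural cells. Fibroblasts lie around vessels and at the islet border, where they secrete collagen and the small proteins that organise it. In bulk islet RNA, fewer cells of a type and less RNA per cell cannot be told apart.

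The promoters are shown for the only gene of the 10 with a lower level in the AE-F2 library, *Acta2* (smooth muscle α-actin), and for the most abundant of the 10, *Rgs5*. Serum response factor is the transcription factor known for binding the CArG box, an element of 10 letters found at many actin and contractile genes. Both sequences are the 250 bases before the annotated start in RefSeq (GRCm38.p6), written 5′ to 3′ on the gene's strand, at chr19:34255374-34255623 (minus strand) for *Acta2* and chr1:169655251-169655500 (plus strand) for *Rgs5*. Capitals mark CArG boxes with at most 1 mismatch in the middle 6 letters.
Acta2: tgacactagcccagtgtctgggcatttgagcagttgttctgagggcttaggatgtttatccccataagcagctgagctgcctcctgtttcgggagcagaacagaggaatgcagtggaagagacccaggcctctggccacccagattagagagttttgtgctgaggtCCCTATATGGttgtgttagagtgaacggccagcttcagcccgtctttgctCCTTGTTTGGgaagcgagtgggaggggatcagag
Rgs5: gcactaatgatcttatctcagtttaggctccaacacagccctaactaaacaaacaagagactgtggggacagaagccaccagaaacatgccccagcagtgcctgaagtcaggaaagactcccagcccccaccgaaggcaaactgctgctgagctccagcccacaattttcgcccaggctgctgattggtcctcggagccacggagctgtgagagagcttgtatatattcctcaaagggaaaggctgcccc
The *Acta2* promoter held 2 such elements, which begin 84 and 34 bases before the annotated start, and the *Rgs5* promoter held none. Over windows of 250 bases before to 50 after the start, 3280 of 32851 RefSeq promoters (9.98%) held at least 1 such element on either strand, and 535 (1.63%) held one without a mismatch. Promoters of 5 of the 10 genes were in the RefSeq table. Of their 8 annotated starts, 1 of *Gsn* held 1 element with a mismatch, and those of *Sparc* and *Fbln1* held none. *Dcn*, *Lum*, *Pdgfrb*, *Tagln* and *Myh11* were not in that table. A match of letters is a description and says nothing about binding.

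The control-F2 library held 16285876 counts and the AE-F2 library 21278503, 1.31 times as many, so a level of the same height has the smaller counting error in AE-F2. Levels are given as CPM, a count scaled to a common library total. The ratio between the libraries was taken after TMM scaling, with 0.5 counts added, over 13627 genes whose mean reached 10 counts, and all 10 genes were among them. The 95% Clopper-Pearson interval given with a ratio covers counting error only. Over the 13627 genes the median log2 ratio was 0.00072 and the median absolute log2 ratio was 0.12. The endocrine identity of the tissue was plain in both libraries, with *Ins2* (insulin) at 128469 CPM in control-F2 and 123712 CPM in AE-F2, and *Gcg* (glucagon) at 16047 and 21979 CPM.

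Among the 10 genes the largest ratios were those of the collagen-binding proteoglycans *Dcn* and *Lum*, both more than 2-fold higher in the AE-F2 library. *Fbln1* and *Tagln* stood at 1.56-fold and 1.36-fold, *Gsn*, *Sparc*, *Rgs5*, *Pdgfrb* and *Myh11* were within 1.14-fold, and *Acta2* was lower. All but *Acta2*, 9 of the 10, were above equality, against 50.2% of the 13627 genes. At least 2-fold higher were 2 of the 10 and 3.2% of all genes tested, and at least 2-fold lower were 0 of the 10 and 0.646% of all genes. Of the 10 counting intervals, 6 were entirely above equality, as were 13.4% of those of all genes, and 1 was entirely below it, as were again 13.4%. Since the genes were chosen with these values known, nothing is read from these counts.

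**Figure D1:**
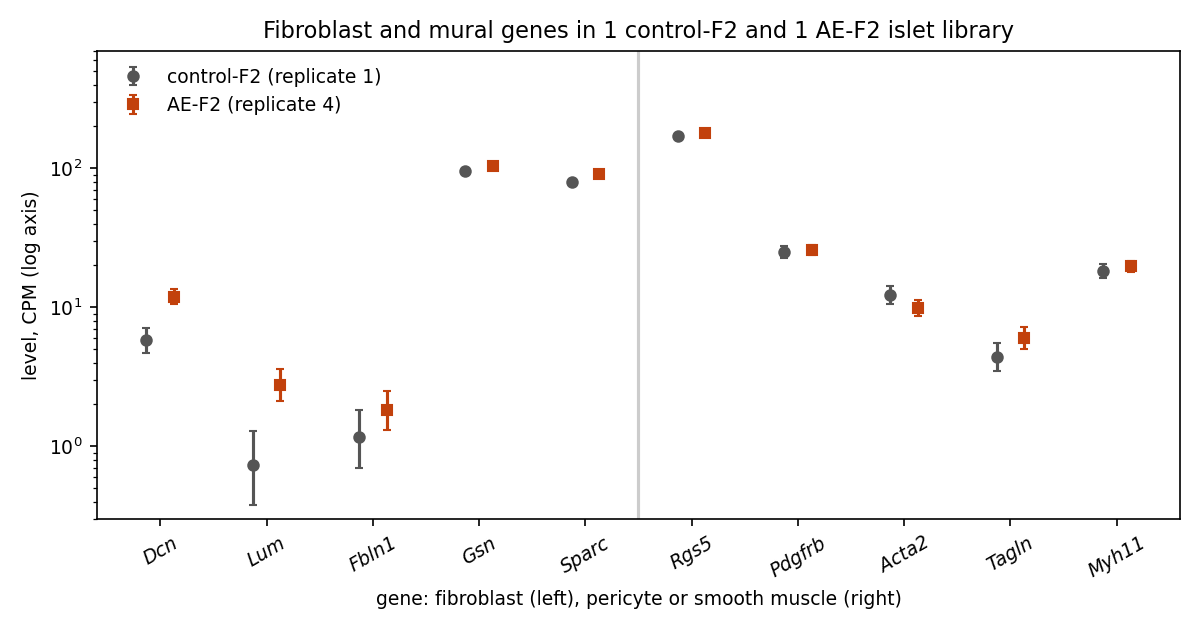
Level of each gene in CPM (log axis) in the control-F2 library (circles) and the AE-F2 library (squares), with 95% exact intervals for counting error. *Dcn* and *Lum* stand apart between the libraries, at 5.83 against 11.9 CPM and 0.737 against 2.77 CPM, while the markers of *Rgs5* and *Pdgfrb* lie almost level.

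Decorin (*Dcn*, ENSMUSG00000019929) is a small leucine-rich proteoglycan that binds collagen fibrils and limits their width. It had 95 counts (5.83 CPM) in the control-F2 library and 254 counts (11.9 CPM) in the AE-F2 library. The AE-F2 level was 2.05-fold higher (95% counting interval 1.61 to 2.63), and the intervals of both levels did not overlap. Of 10540 genes that, like *Dcn*, averaged 100 counts or more, 31 (0.294%) were at least 2-fold higher. *Dcn*, at a mean of 174.5 counts, lies near the lower end of that class and was picked with its ratio known. No rarity is therefore read from this share. With trends of the ratio with GC content and length removed, the log2 ratio of *Dcn* was 0.96, just under 2-fold.

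Lumican (*Lum*, ENSMUSG00000036446) belongs to the same proteoglycan family and also spaces collagen fibrils. It was the rarest of the 10 per length in control-F2, with 12 counts (0.737 CPM), and had 59 counts (2.77 CPM) in AE-F2. The ratio was 3.68-fold (2.01 to 7.71), the largest of the 10 and the least precise, and the intervals of both levels did not overlap. Upward ratios of 2-fold or more were common at this depth, in 405 of 3087 genes (13.1%) with a mean of 10 to under 100 counts. Downward ratios of that size were rare, in 88 of all 13627 genes. The spread was thus uneven, and its cause was not tested. Per 100 *Dcn* counts there were 12.6 *Lum* counts in control-F2 and 23.2 in AE-F2, a log2 difference of 0.88 whose approximate 95% interval, -0.08 to 1.84, holds 0.

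Fibulin 1 (*Fbln1*, ENSMUSG00000006369) is a matrix glycoprotein of elastic fibres and basement membranes. Its 19 counts (1.17 CPM) in control-F2 and 39 counts (1.83 CPM) in AE-F2 gave a ratio of 1.56-fold (0.889 to 2.89), an interval that holds equality, so that these counts are too few to show a difference. Summed, *Dcn*, *Lum* and *Fbln1* had 126 counts (7.74 CPM) in control-F2 and 352 counts (16.5 CPM) in AE-F2, 2.14-fold (1.74 to 2.65). *Dcn* held 254 of those 352 counts. This sum leaves out *Gsn* and *Sparc*, whose ratios were nearer to equality, a split made with the values known. The sum of all 5 fibroblast genes was 1.15-fold.

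The remaining pair of the fibroblast genes is also made by other islet cells. Gelsolin (*Gsn*, ENSMUSG00000026879) severs and caps actin filaments in many cell types. It had 1557 counts (95.6 CPM) in control-F2 and 2199 counts (103 CPM) in AE-F2, 1.08-fold (1.02 to 1.16). *Sparc* (ENSMUSG00000018593) encodes osteonectin, a collagen-binding secreted protein that endothelial cells also make. It had 1300 counts (79.8 CPM) and 1926 counts (90.5 CPM), 1.14-fold (1.06 to 1.22). Both were slightly higher in AE-F2, and 27.1% of all genes had a higher ratio than *Gsn* and 19.0% a higher one than *Sparc*, against 3.12% for *Dcn*, 1.33% for *Lum* and 5.42% for *Fbln1*. These genes were picked with their values known, so no rarity is read from these shares. *Gsn* and *Sparc* held most of the counts of the 5 fibroblast genes, whose sum therefore moved little, from 183 to 210 CPM (1.15-fold, 1.10 to 1.21), while their median log2 ratio was 0.64.

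*Rgs5* (ENSMUSG00000026678) encodes a regulator of G protein signalling that is a classical pericyte marker. With 2776 counts (170 CPM) in control-F2 and 3835 counts (180 CPM) in AE-F2 it was the most precisely measured of the 10, at 1.06-fold (1.01 to 1.11). *Pdgfrb* (ENSMUSG00000024620), the receptor through which platelet-derived growth factor recruits pericytes to vessels, had 406 counts (24.9 CPM) and 549 counts (25.8 CPM), 1.04-fold (0.911 to 1.18). These pericyte genes kept nearly the same proportion to each other, with 14.6 *Pdgfrb* counts per 100 *Rgs5* counts in control-F2 and 14.3 in AE-F2, a log2 difference of -0.03 (-0.23 to 0.17).

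The contractile genes did not move as one. *Acta2* (ENSMUSG00000035783) had 200 counts (12.3 CPM) in control-F2 and 210 counts (9.87 CPM) in AE-F2, a ratio of 0.806 (0.661 to 0.983), and the intervals of the levels overlapped. *Tagln* (ENSMUSG00000032085), transgelin, an actin-binding protein of smooth muscle, had 72 counts (4.42 CPM) and 128 counts (6.02 CPM), 1.36-fold (1.01 to 1.85). *Myh11* (ENSMUSG00000018830), the smooth muscle myosin heavy chain, had 297 counts (18.2 CPM) and 418 counts (19.6 CPM), 1.08-fold (0.929 to 1.26). *Acta2* was thus lower, *Tagln* higher, and the interval of *Myh11* held equality. The call for *Acta2* was lost when AE-F2 was thinned to the control-F2 depth (log2 ratio -0.20), and those for *Tagln* (0.41) and *Rgs5* (0.06) when the GC and length trends were removed. Within each library, there were 67.3 *Acta2* counts per 100 *Myh11* counts in control-F2 and 50.2 in AE-F2, a log2 difference of -0.42 (approximate interval -0.77 to -0.07). With AE-F2 thinned, the log2 ratios of *Acta2* and *Myh11* lay closer together, at -0.20 and -0.02. Against *Tagln* the difference of *Acta2* was -0.76 (-1.26 to -0.26), while that of *Tagln* against *Myh11* was 0.34 (-0.13 to 0.81), whose interval holds 0. The 5 mural genes summed to 230 CPM in control-F2 and 242 CPM in AE-F2 (1.05-fold, 1.01 to 1.10), their median log2 ratio was 0.08, and without *Rgs5* the sum was 1.03-fold (0.945 to 1.12).

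**Figure D2:**
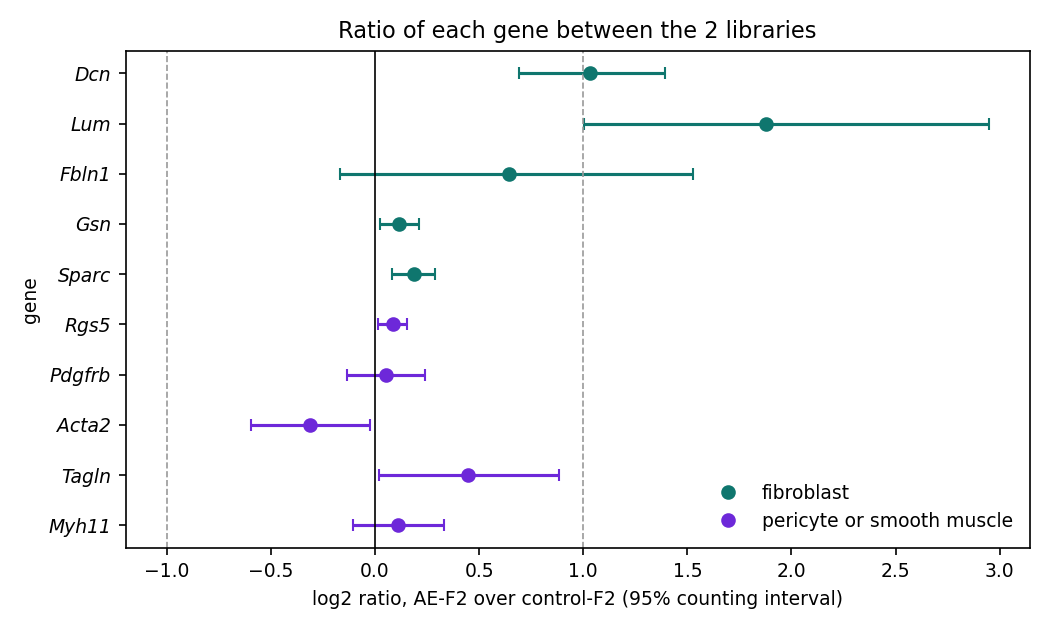
Log2 ratio, AE-F2 to control-F2, for each gene (horizontal axis), with its 95% counting interval and dashed lines at 2-fold. The ratios run from -0.31 for *Acta2* to 1.88 for *Lum*, and the intervals of *Fbln1*, *Pdgfrb* and *Myh11* cross 0.

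Reads of *Tagln* may not all be its own. Of the 1546 stretches of 50 bases in its transcript, 747 (48.3%) also occur on the opposite strand in other genes' transcripts, 688 of them in *Gm48529*, which is not listed in the tables, and 59 in *Pcsk7*, which had 335 and 423 counts. The strand setting of the counting is not given in the sources used here, so reads of *Tagln* and of these genes cannot be told apart. *Acta2* shared 0.352% of its stretches with the cytoplasmic actin *Actg1* and pseudogenes, *Myh11* shared 0.4% with the non-muscle myosins *Myh9* and *Myh10*, and the other 7 genes shared none.

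Per length the levels spanned 138-fold in control-F2 and 87.8-fold in AE-F2. In RPKM, the CPM per kilobase of transcript, *Rgs5* was highest in both libraries, at 41.6 and 44.0, followed by *Gsn* at 36.0 and 39.0 and *Sparc* at 34.7 and 39.4, whose order changed between the libraries but whose intervals overlapped in each. In control-F2 the middle of the order was *Acta2* (6.03 RPKM), *Pdgfrb* (4.60), *Dcn* (3.32), *Myh11* (2.78) and *Tagln* (2.77), and the intervals of the last 3 overlapped from one to the next. In AE-F2 *Dcn* came next after *Gsn* at 6.79 RPKM, clear of *Acta2* at 4.85, which overlapped with *Pdgfrb* at 4.76, and the neighbours *Tagln* (3.77) and *Myh11* overlapped in turn. *Dcn* thus stood at rank 6 in control-F2 and rank 4 in AE-F2. *Lum* and *Fbln1* were the lowest in both. They were level in control-F2, at 0.301 and 0.319 RPKM, and apart in AE-F2, at 1.13 and 0.501.

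Proportions within each library set the fibroblast genes against the mural genes and the endothelium. Per 100 *Rgs5* counts there were 3.42 *Dcn* counts in control-F2 and 6.62 in AE-F2, a log2 difference of 0.95 (0.61 to 1.30). Against *Pdgfrb* the difference of *Dcn* was 0.98 (0.60 to 1.37), and against *Sparc* it was 0.85 (0.50 to 1.21). *Dcn* was thus higher in AE-F2 relative to pericyte genes and to *Sparc* alike. Per 100 counts of 12 endothelial markers, the 5 mural genes had 24.7 counts in control-F2 and 26.3 in AE-F2, a log2 difference of 0.09 (0.02 to 0.16), and the 5 fibroblast genes had 19.7 and 22.9, a difference of 0.22 (0.15 to 0.30). *Gsn* and *Sparc*, which other islet cells also make, held 52.2% and 43.6% of the CPM of the 5 fibroblast genes in control-F2. In AE-F2 they held 49.1% and 43.0%, so the difference of 0.22 is mainly theirs. The endothelial markers themselves summed to 931 CPM in control-F2 and 917 CPM in AE-F2 (0.987-fold, 0.966 to 1.01).

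**Figure D3:**
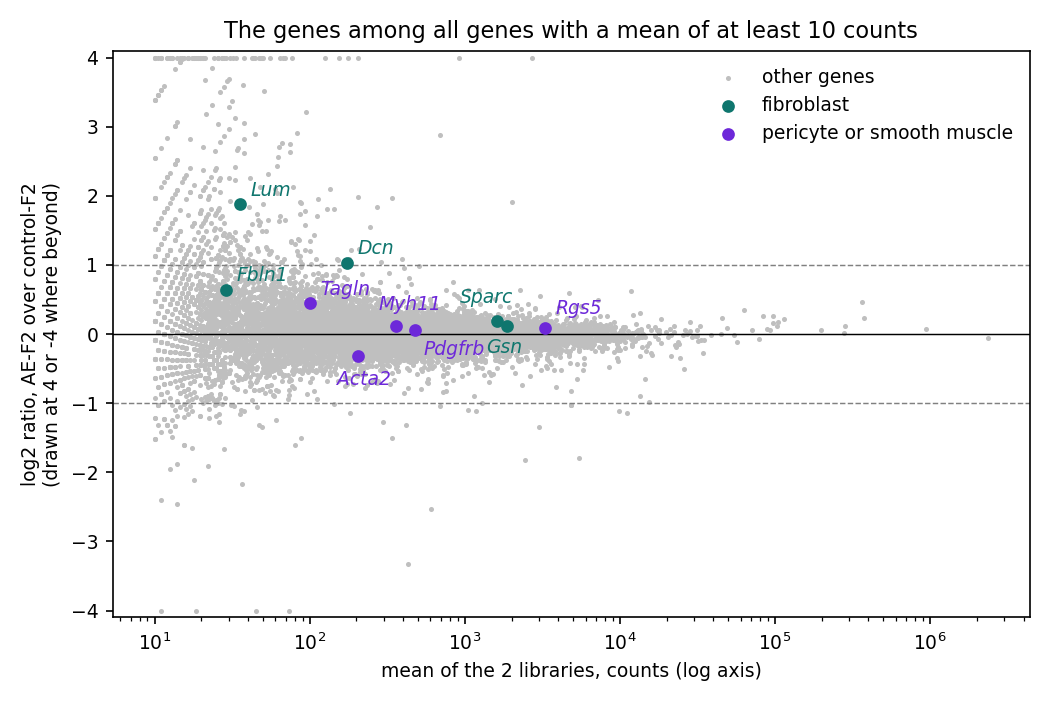
Log2 ratio, AE-F2 to control-F2 (vertical axis), against the mean count of both libraries (log axis) for the 13627 genes, with the 10 genes in colour and dashed lines at 2-fold. *Dcn*, at a mean of 174.5 counts, sits at the upper edge of genes of its abundance. *Lum* and *Fbln1*, at means of 35.5 and 29.0 counts, lie where ratios spread widely, past 2-fold more often upward than downward.

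Of 9 interstitial collagen genes, 7 had an interval above equality (13.4% of all genes did) and 1 was at least 2-fold higher (3.2% of all genes). Their median log2 ratio was 0.92, and the intervals of the other 2, named after their values were seen, *Col5a2* (-0.14 to 0.90) and *Col14a1* (-0.08 to 0.82), held equality. *Col3a1*, collagen III, had 282 counts (17.3 CPM) in control-F2 and 727 counts (34.2 CPM) in AE-F2, a log2 ratio of 0.98 (0.78 to 1.19). *Col1a2* and *Col1a1*, the chains of collagen I, had log2 ratios of 0.96 (0.73 to 1.19) and 1.23 (0.91 to 1.57). The 9 genes summed to 63.6 CPM in control-F2 and 120 CPM in AE-F2 (1.89-fold, 1.75 to 2.03).

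Of 20 other fibroblast genes, 15 had enough counts. Their median log2 ratio was 0.63, 9 had an interval above equality and 0 below, 5 were at least 2-fold higher and 1 at least 2-fold lower, beside 13.4% of all genes with an interval above equality and 13.1% of those averaging 10 to under 100 counts at least 2-fold higher. Over all genes 13.4% of intervals were below equality and 0.646% of genes were at least 2-fold lower. Matrix Gla protein (*Mgp*) had 128 counts in control-F2 and 304 in AE-F2, a log2 ratio of 0.86 (0.56 to 1.18), and *Thy1*, a surface marker of fibroblasts, had 64 and 129 counts, 0.63 (0.19 to 1.09). The 5 past 2-fold, named after their values were seen, were *Mmp2*, *Fn1*, *Dpt*, *Pdgfra* and *Serpinf1*, with 6 to 17 counts each in control-F2 and 33 to 83 in AE-F2. The lower one, *Pi16*, had 13 counts in control-F2 and 7 in AE-F2, and its interval held equality. *Pdgfra*, the receptor that marks fibroblasts as *Pdgfrb* marks pericytes, had 10 counts in control-F2 and 43 in AE-F2, a log2 ratio of 1.68 (0.71 to 2.88).

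The families of *Dcn*, *Fbln1*, *Sparc* and *Gsn* were mixed, and the 4 relatives past 2-fold all averaged under 100 counts, where 13.1% of genes were at least 2-fold higher (3.2% over all genes). Of 10 other small leucine-rich proteoglycans 5 had enough counts, with a median log2 ratio of 0.73 and 1 at least 2-fold higher, fibromodulin (*Fmod*, named after its value was seen), with 7 and 19 counts. Biglycan (*Bgn*), the closest relative of decorin, had 264 counts in control-F2 and 607 in AE-F2, a log2 ratio of 0.82 (0.61 to 1.03), while *Aspn*, asporin, had 134 and 154 counts, -0.18 (-0.52 to 0.16), and without *Bgn* the family's sum was 1.05-fold (0.873 to 1.26). *Bgn* thus carried the family's sum. Of 15 fibulins, fibrillins and other elastic fibre genes 9 had enough counts, with a median of 0.11 and 1 at least 2-fold higher, elastin (*Eln*, named after its value was seen), with 32 and 141 counts. The most abundant of them, *Ltbp3*, which binds latent TGF-β, had a log2 ratio of -0.06 (-0.16 to 0.03). Of 7 relatives of *Sparc*, 6 had enough counts, with a median of 0.02, and *Spock1*, a proteoglycan also made in the brain, was lower at -0.41 (-0.51 to -0.31) whereas *Fstl1* was higher at 0.37 (0.02 to 0.73). The 7 relatives of *Gsn* had a median of -0.02, with *Capg* and *Avil*, both named after their values were seen, more than 2-fold higher at 17 and 75 counts and at 19 and 53 counts. The far more abundant *Flii* and *Svil* were slightly lower, at -0.11 (-0.20 to -0.01) and -0.16 (-0.31 to -0.01).

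**Figure D4:**
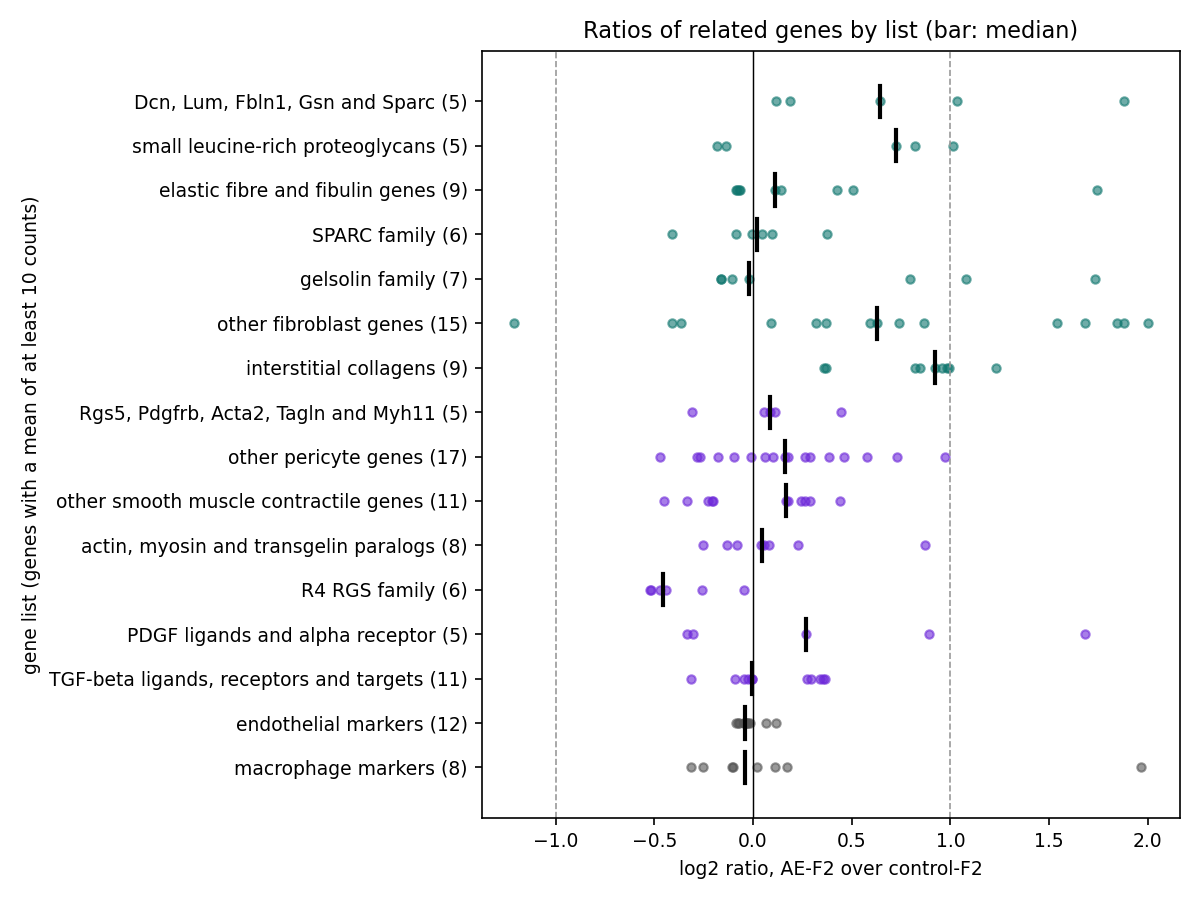
Log2 ratio, AE-F2 to control-F2 (horizontal axis), of each gene that averaged 10 counts or more, by list, with the number of genes in brackets, black bars at the medians and dashed lines at 2-fold. The interstitial collagens all lie above 0 with a median of 0.92, the endothelial markers lie close to 0 with a median of -0.04, and the relatives of *Rgs5* all lie below 0 with a median of -0.46.

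Of 18 other pericyte genes, 17 had enough counts, with log2 ratios from -0.47 to 0.97 and a median of 0.16, 3 with an interval above equality, 2 below (13.4% of all genes each way) and 12 that held it, and 0 past 2-fold. *Vtn*, vitronectin, had 79 counts in control-F2 and 142 in AE-F2, 0.46 (0.06 to 0.88), and *Anpep*, an aminopeptidase of pericytes and other cells, had 0.16 (0.10 to 0.22). The third above equality was *Des*, desmin, named after its value was seen, with 62 and 121 counts, 0.58 (0.13 to 1.05). The 2 below were *Rgs4* at -0.47 (-0.62 to -0.33) and, named after its value was seen, *Mcam*, an adhesion molecule of mural and endothelial cells, at -0.27 (-0.44 to -0.10). The sum of the list was 1.05-fold (1.02 to 1.08), and without *Anpep*, by far the most abundant, it was 0.957-fold (0.912 to 1.01). Of 16 other smooth muscle contractile genes, 11 had enough counts, with a median of 0.17, 2 intervals above equality and 2 below, those of *Srf* and, named after its value was seen, *Cald1*. Their sum was 0.967-fold (0.924 to 1.01), and without *Tpm1* the median was -0.02 and the sum 0.922-fold (0.876 to 0.971), so the direction of the median rests on 1 gene. *Tpm1*, tropomyosin, stood at 0.18 (0.04 to 0.32) and *Flna*, filamin, at 0.17 (0.03 to 0.31). *Srf*, serum response factor itself, had 729 counts (44.8 CPM) in control-F2 and 694 counts (32.6 CPM) in AE-F2, a log2 ratio of -0.45 (-0.60 to -0.30). *Myl9*, a myosin light chain, stood at -0.33 (-0.71 to 0.04). *Cnn1* and *Actg2*, which mark mature smooth muscle, had at most 1 count in either library.

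The paralogs of *Acta2* that every cell uses were lower as well. *Actb* had a log2 ratio of -0.25 (-0.30 to -0.20) and *Actg1* -0.13 (-0.16 to -0.10), against -0.31 (-0.60 to -0.02) for *Acta2*. The median over the 8 actin, myosin and transgelin paralogs with enough counts was 0.05. The relatives of *Rgs5* in the R4 class of RGS proteins went below it. All 6 with enough counts had a ratio below equality, with a median of -0.46 and 3 intervals below equality (13.4% of all genes). *Rgs2* had 4335 counts (266 CPM) in control-F2 and 3951 counts (186 CPM) in AE-F2, -0.52 (-0.58 to -0.45). *Rgs4*, itself made by pericytes, stood at -0.47 and *Rgs16* at -0.44 (-0.57 to -0.31), while *Rgs5* was at 0.08 (0.01 to 0.16).

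The ligands that act on these cells were measured too. *Pdgfb*, the endothelial ligand of the *Pdgfrb* receptor, had 241 counts in control-F2 and 254 in AE-F2, a log2 ratio of -0.31 (-0.57 to -0.05), and *Pdgfa*, the ligand of the α receptor, stood at -0.33 (-0.57 to -0.10). The other ligands, *Pdgfd* and *Pdgfc*, both named after their values were seen, had 75 and 118 counts, 0.27 (-0.16 to 0.71), and 6 and 15 counts, 0.89 (-0.51 to 2.59). With *Pdgfra*, 3 of these 5 genes had a ratio above equality (50.2% of all genes did), and their median was 0.27. Of their intervals, 1 was above equality, 2 were below (13.4% of all genes each way) and 2 held it. Of 11 TGF-β ligands, receptors and targets, 3 had an interval above equality and 0 below, beside 13.4% of all genes each way, with a median of -0.0042. *Tgfb1*, a ligand that drives collagen synthesis in fibroblasts, had 145 and 242 counts, 0.36 (0.05 to 0.66), its receptor *Tgfbr2* 0.37 (0.11 to 0.63) and *Tgfbr1* -0.01 (-0.12 to 0.11).

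Markers of other cell types also differed between these libraries. All 8 B cell markers had an interval above equality (13.4% of all genes did), 7 of them with at most 3 counts in control-F2. These 7 reached a mean of 10 counts only through AE-F2, which fixed their intervals above equality. Nothing is read from that count. The sum of the 8 markers went from 11.7 to 43.6 CPM (3.74-fold, 3.20 to 4.40). *Cd79a* held 178 of the 190 control-F2 counts, and without it the sum was 12 counts in control-F2 and 536 in AE-F2, 33.1-fold (19.5 to 66.8). *Ms4a1* (CD20) had 3 counts in control-F2 and 150 in AE-F2. Of 7 lymph node stroma markers, made largely by stromal cells of lymphoid tissue, 3 had enough counts and 2 of these were at least 2-fold higher (13.1% of genes averaging 10 to under 100 counts were). These 2 also reached the mean of 10 counts only through AE-F2, so nothing is read from that count either. The sum of the 7 was 1.28-fold (1.13 to 1.45), or 8.81-fold (5.56 to 15.5) without the broadly expressed *Ltbr*. *Cxcl13*, a B cell chemokine, had 5 and 123 counts, whereas *Ccl21a* and *Madcam1* were at 0 in control-F2 and at 6 and 1 counts in AE-F2. Of 8 macrophage markers *Lyz2* had 112 and 571 counts, *C1qa* stood at a log2 ratio of -0.25 (-0.42 to -0.09) and the median was -0.04. Their part in the higher *Dcn*, *Lum* and collagen levels was not tested.

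Of 10 acinar markers, the enzymes of the exocrine pancreas, all 9 with enough counts had an interval below equality (13.4% of all genes did), from 2036 to 1504 CPM in sum (0.741-fold, 0.729 to 0.752), and their part in these ratios was not tested. Of 7 mesothelial markers, *Upk3b* and *Upk1b* were at 0 in both libraries and the sum, of which *Msln* held 971 of 983 control-F2 counts, was 0.961-fold (0.883 to 1.05). *Krt19*, a keratin that duct cells also make, had 11 and 35 counts, a log2 ratio of 1.26 (0.28 to 2.41). Of 6 adipocyte markers, *Adipoq*, *Plin1* and *Lep* were at 0 in both, while *Fabp4*, which capillary endothelium also makes, had 67 and 140 counts. The 10 Schwann cell markers summed to 1.15-fold (0.997 to 1.32). Of these, 6 had enough counts, with a median log2 ratio of 0.38, 5 above equality and 1 interval above it (13.4% of all genes), that of *Cdh19*, named after its value was seen, with 17 and 42 counts. Their part in the ratios of the fibroblast genes was not tested. The 8 beta cell markers summed to 198108 and 198239 CPM, led by *Ins2* and *Ins1*, but 6 of them had an interval below equality and 2 above (13.4% of all genes each way), with a median log2 ratio of -0.10. *Slc2a2*, the glucose transporter, stood at -0.28 (-0.31 to -0.25) and *Nkx6-1*, a beta cell transcription factor, at -0.26 (-0.30 to -0.22). Among the alpha and delta cell markers *Gcg* stood at 0.46 (0.45 to 0.46), whereas *Sst*, the delta cell hormone somatostatin, stood at -0.01 (-0.02 to 0.01).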

How the data were processed

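Islet RNA was sequenced after poly(A) selection. The methods name alignment with HISAT2, and the submitters' processing notes name Bowtie2, RSEM and DESeq2; which tool made the tables, the genome build, the annotation and the strand setting are not given in the sources used here. The authors deposited expected counts per gene, not scaled for depth or length, in which 8.56% (control-F2) and 9.28% (AE-F2) of values were not whole, though those of the 10 genes were. Counts were rounded. Of 21899 identifiers, 21806 matched a symbol in GENCODE M21, which was used for names and for the length of the longest protein-coding transcript behind RPKM.

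Libraries were scaled with TMM factors (edgeR 4.0.16, R 4.3.3), 0.5 counts were added, and genes with a mean under 10 counts were left out. Intervals are 95% Clopper-Pearson (scipy 1.17.1), and those of within-library proportions are approximate (Wald). PCR copies are not independent molecules, so intervals cover counting error only. With 1 library per group no p-value was computed. A library with at most 3 counts was taken as not detected. Tested on simulated libraries, 100 of 100 genes made 3-fold higher and 98 of 100 made 3-fold lower passed 2-fold, and 95.5% of unchanged genes had an interval holding equality. The simulated counts were Poisson draws, so that last share was near 95% by design and says nothing about real libraries. The changed genes were taken above a higher minimum mean than the 10 counts used for the ratios.

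The genes and all lists were chosen with earlier results of these data known. Of each list, up to 2 most abundant genes and the 2 largest ratios among those averaging 100 counts or more could be named, besides genes at 3 counts or fewer. Alternatives were median-of-ratios factors (DESeq2 1.42.0), library totals, totals without the 10 most abundant genes, other pseudocounts, minimum counts and fold thresholds, unrounded counts, removed trends with GC content and length, and AE-F2 thinned to the control-F2 total.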

Additional observations from a re-analysis of the deposited data

How the results depend on the processing

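The 10 genes gave 88 log2 ratios under 9 alternative settings, and all 88 lay within the gene's counting interval. Under these settings 9 of the 10 kept their sign, and *Myh11*, whose interval holds equality, ranged from -0.02 to 0.16. *Dcn* ranged from 0.96 to 1.07, *Lum* from 1.60 to 1.89, *Fbln1* from 0.55 to 0.74 and *Acta2* from -0.34 to -0.20. Of the 2 genes past 2-fold, 1 was left both with trends of GC content and length removed, where *Dcn* came to 0.96, and with a minimum mean of 50 counts, which drops *Lum*. Of 88 intervals, 4 came to hold equality, those of *Rgs5* (trends removed, 0.06, or AE-F2 thinned, 0.07), *Tagln* (trends removed, 0.41) and *Acta2* (thinned, -0.20). The cause was not tested. Over all genes, 436 were at least 2-fold higher and 88 lower. At a 1.5-fold threshold there were 849 higher and 293 lower, with a minimum mean of 1 count 1218 and 423, with a minimum mean of 50 counts 85 and 21, and with a pseudocount of 5 the lower ones were 46. No paired analysis was possible because control-F2 replicate 1 and AE-F2 replicate 4 share no replicate number, and no replicate could be left out with 1 library per group. Depth limits *Lum* and *Fbln1* most, at 12 and 19 counts in control-F2.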
